A study of Homo sapiens with 12 samples.

Results

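The mRNA levels of 10 amino acid transporters of the plasma membrane were followed in OCI-AML3, a human cell line established from acute myeloid leukaemia. The genes were SLC7A5, SLC3A2, SLC7A11, SLC7A1, SLC7A6, SLC1A4, SLC1A5, SLC38A1, SLC38A2 and SLC6A9. Their rows were found by symbol. All 10 have a row among the 54628 gene symbols of the count table, and all 10 were among the 15173 genes abundant enough to test. ERKi, alone or with venetoclax, lowered 8 of the 10 and raised SLC7A11 and SLC1A4. Changes were widespread: of all genes tested, 35.2% were called lower and 34.5% higher with ERKi, and 33.4% and 30.4% with both drugs. Venetoclax alone changed none by the test used, but added to ERKi it raised SLC7A5, SLC3A2 and SLC7A1 relative to ERKi alone and lowered SLC38A1, SLC38A2, SLC7A11 and SLC1A4.

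The study gave 4 groups of 3 libraries, each from cells treated for 24 h: the solvent DMSO, venetoclax (labelled ABT199), which blocks the anti-apoptotic protein BCL2, an inhibitor of the kinase ERK labelled compound 27 (ERKi), and ABT199 with ERKi together (Comb). Doses are not given in the labels. The series asks how ERK inhibition overcomes venetoclax resistance. The labels do not say that replicates were separate cultures, so p-values measure only the spread between these libraries, which may be technical.

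Amino acids cross the plasma membrane through carriers that either exchange one for another or accumulate them with sodium. SLC7A5 carries large neutral amino acids such as leucine, and SLC7A11 takes up cystine in exchange for glutamate. Each works as a light chain bound to the glycoprotein heavy chain SLC3A2, as does SLC7A6, which exchanges cationic for neutral amino acids. SLC7A1 carries arginine and lysine without a heavy chain. SLC1A5 and SLC1A4 are sodium-dependent exchangers of small neutral amino acids, SLC1A5 being a main route for glutamine. SLC38A1 and SLC38A2 bring in glutamine, alanine and related amino acids with sodium, and SLC6A9 carries glycine. Many of these genes are known to be induced by the transcription factor ATF4 when amino acids run short, and SLC7A5 and SLC1A5 are also known targets of MYC.

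Promoter windows from RefSeq (GRCh38.p14, 250 bases before to 50 after an annotated start) were at hand for 9 of the 10 genes, 15 windows in all. The ATF4-C/EBP composite letters TGATGNAA, read on both strands, were in 5 of these 15 windows and in 3.62% of 35116 windows of that length. The 5 matches are shown because they mark where 5 genes of the set carry the letters of the amino acid response. Each stretch of 30 bases is written 5′ to 3′ on the strand of its gene, with the match in capitals.
SLC1A4: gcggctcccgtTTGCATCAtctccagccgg
SLC3A2: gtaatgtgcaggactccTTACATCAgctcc
SLC38A1: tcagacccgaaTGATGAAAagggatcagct
SLC7A1: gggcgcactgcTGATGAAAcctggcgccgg
SLC1A5: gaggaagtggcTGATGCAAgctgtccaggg
The SLC1A4 stretch lies on the plus strand at chr2:64989381-64989410 and its match begins 7 bases upstream of a start. The SLC3A2 stretch (plus strand, chr11:62881719-62881748) holds its match 38 bases downstream of a start. Those of SLC38A1 (minus strand, chr12:46266502-46266531) and SLC1A5 (minus strand, chr19:46784893-46784922) hold it 4 and 97 bases upstream. That of SLC7A1 (minus strand, chr13:29595663-29595692) holds it 8 bases downstream. Distances are to the first base of the match, with the start counted as 1. In SLC1A4 and SLC3A2 the letters read in reverse.

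The E-box CACGTG, the letters that MYC with its partner MAX is known to bind, was in 2 of the 15 windows and in 7.26% of all windows. It is shown because SLC7A5 and SLC1A5 lost the most CPM of the set under ERKi, a measure that depends on abundance. On the log2 scale SLC6A9 (-3.82) fell more than SLC7A5 (-3.42), and SLC7A1 (-1.40) more than SLC1A5 (-1.28). The windows of SLC6A9 and SLC7A1 held no E-box.
SLC7A5: ggccggacgacgCACGTGctccgagctggg
SLC1A5: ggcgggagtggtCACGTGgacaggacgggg
The SLC7A5 stretch is at chr16:87869620-87869649 on the minus strand, with the match 130 bases upstream of the start. The SLC1A5 stretch is at chr19:46787326-46787355 on the minus strand, with the match 50 bases upstream of another start than the one above. The AP-1 letters TGANTCA were in 2 of the 15 windows (SLC38A1 and SLC3A2) and in 7.71% of all. The antioxidant response letters TGACNNNGC were in 5 windows and in 13.3% of all, and their match in SLC3A2 overlaps the AP-1 match there. The ETS letters CCGGAAGT were in none of the 15 and in 4.14% of all windows. A match describes letters only, and binding was not measured.

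Libraries held 19199296 to 21275065 counts. DMSO replicate 1 stood apart: set against either of the other DMSO libraries its counts gave a chi-square of 16.3 or 15.37 for each degree of freedom, while every other pair of replicates gave 2.26 to 5.11. No pair agreed within sampling noise. Of 8 myeloid blast markers, 7 were counted in every DMSO library. The 8 summed to 768 to 870 CPM (reads per 1000000 of the TMM-scaled library) in DMSO, 739 to 797 in ABT199, 1460 to 1520 in ERKi and 1540 to 1590 in Comb, and 6 of the 7 tested were higher under ERKi. T cell, erythroid and epithelial markers summed to at most 0.462 CPM in any library, and B cell markers to at most 2.71. The 5 fibroblast markers summed to 6.23 to 34.9 CPM in DMSO, 13 to 24 in ABT199, 10.3 to 24.9 in ERKi and 2.1 to 2.43 in Comb. The 8 monocyte markers summed to 423 to 473 CPM in DMSO, 405 to 418 in ABT199, 4170 to 4270 in ERKi and 5300 to 5430 in Comb. LYZ made up much of these sums, with a mean of 2434 CPM in ERKi and 3990 in Comb. Under ERKi 7 of the 8 were higher and 1 lower than in DMSO, where 34.5% of all genes were called higher and 35.2% lower. In Comb against ERKi 1 was higher and 5 were lower, where the shares of all genes were 26.5% and 24.3%. The part of these differences in the results below was not tested. ERKi also lowered DUSP6, a phosphatase gene switched on by ERK, (log2 fold change -2.71 ± 0.16, SE, adjusted p = 1.03e-10), and all 13 tested ERK output genes were lower.

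Before treatment effects are described, the levels of the 10 genes can be ranked per length, as CPM per 1000 exon bases of GENCODE v29. In DMSO, SLC1A5 came first at 85.5 ± 7.7 (SD, n = 3), then SLC7A5 at 66.9 ± 5.34. SLC38A2 (42.6 ± 5.19), SLC1A4 (38.1 ± 0.433) and SLC3A2 (37.3 ± 2.8) followed and lay within their spread of each other. SLC7A1 stood at 30.7 ± 1.52, and SLC38A1 (6.9 ± 0.959) and SLC7A6 (6.52 ± 0.688) did not differ beyond their spread. SLC7A11 (2.15 ± 0.307) and SLC6A9 (1.34 ± 0.0697) came last. The order in ABT199 was the same. In ERKi, SLC1A4 was first at 48.3 ± 1.57 and SLC7A5 sixth at 6.27 ± 0.271, and in Comb SLC7A5 was again sixth, at 13.3 ± 0.254. The 10 genes together took 0.169 to 0.172% of all counts in DMSO, 0.173 to 0.178% in ABT199, 0.101 to 0.102% in ERKi and 0.095 to 0.0985% in Comb.

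**Figure D1:**
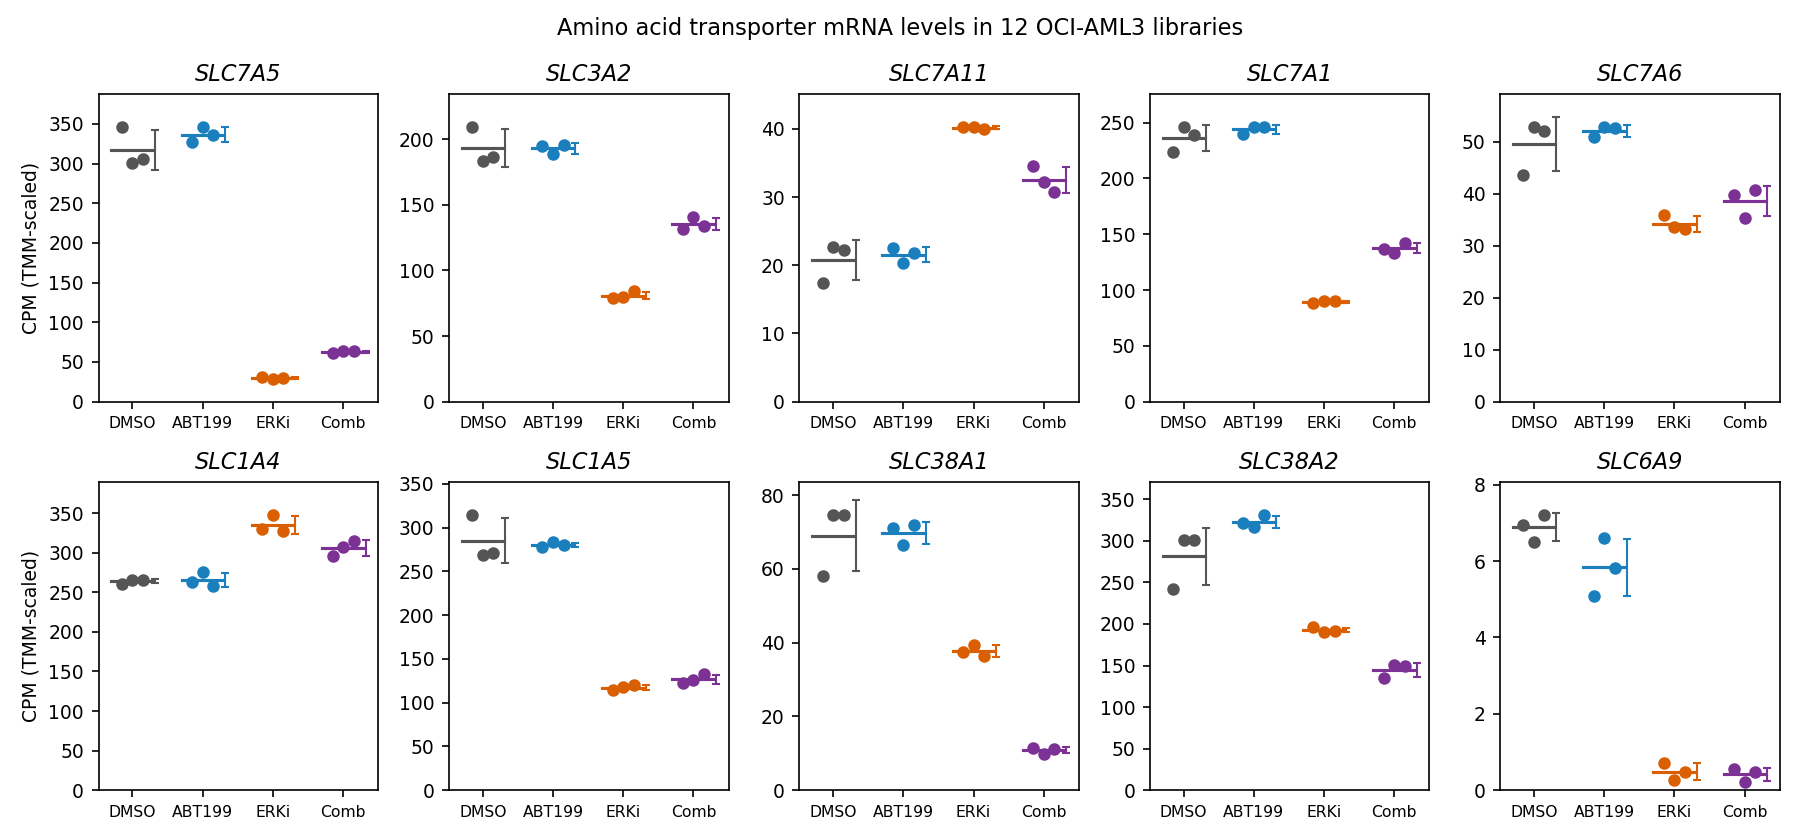
CPM (vertical axis, from 0) of each of the 10 genes in the 4 groups on the horizontal axis; points are libraries, the line is the mean of 3 and the bar its SD. The DMSO and ABT199 points overlap in each panel except that of SLC38A2, where the ABT199 points lie above those of DMSO. The ERKi and Comb points lie below both groups in 8 panels and above them in those of SLC7A11 and SLC1A4.

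With ERKi alone, 8 of the 10 transporter genes were lower and 2 higher than in DMSO. Of all genes tested, 35.2% were called lower and 34.5% higher (edgeR's quasi-likelihood test, Benjamini-Hochberg adjusted p under 0.05 over 15173 genes). The median log2 fold change of the 10 was -1.06, against 0.01 for all genes tested. The 10 were chosen with earlier results of these data known, so this contrast only describes the list. The 10 other plasma membrane amino acid transporters tested had a median of -0.34. In bulk RNA, fewer cells that express a gene and less RNA per cell cannot be told apart.

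SLC7A5 (chr16:87830023-87869488, minus strand, GENCODE v29 on GRCh38), the leucine carrier, showed the steepest fall among the abundant members. Its CPM was 347, 300.2 and 306 in the 3 DMSO libraries, 327, 346 and 337 with ABT199, 30.8, 28.3 and 30.2 with ERKi, and 61.6, 63.3 and 63.9 with Comb. Every ERKi and Comb library lay far below every DMSO and ABT199 library, and the Comb libraries lay above the ERKi libraries without overlap. The fall under ERKi was 10.7-fold (log2 fold change -3.42 ± 0.061, SE, adjusted p = 2.37e-16), and only 0.336% of genes tested fell as much or more. The table also lists 2 pseudogene copies of SLC7A5. SLC7A5P1 had no count in any library and SLC7A5P2 had 10 to 35, so reads assigned to them were few beside the 613 to 7174 of SLC7A5.

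SLC3A2 (chr11:62856102-62888875, plus strand), the shared heavy chain, fell less than its light chain partner. Its CPM was 209.6, 183 and 186 in DMSO, 195, 188 and 195 with ABT199, 78.6, 79.9 and 84.0 with ERKi, and 132, 141 and 134 with Comb. The ERKi libraries were lowest and the Comb libraries lay between them and the rest, with no overlap. The log2 fold change under ERKi was -1.26 ± 0.055 (adjusted p = 3.27e-12), a 2.39-fold fall.

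SLC7A11 (chr4:138164097-138242349, minus strand), the cystine carrier, moved the other way. Its CPM was 17.4, 22.7 and 22.3 in DMSO, 22.5, 20.3 and 21.8 with ABT199, 40.4, 40.2 and 40.1 with ERKi, and 34.5, 32.3 and 30.8 with Comb. The ERKi libraries were the highest, and DMSO replicate 1 was the lowest of all 12. The rise under ERKi was 1.94-fold (log2 fold change 0.95 ± 0.085, adjusted p = 3.13e-08). Its antisense partner SLC7A11-AS1 overlaps 8.97% of its exon bases and had at most 4 counts in a library.

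SLC7A6 (chr16:68264516-68301823, plus strand), the third light chain, fell by 0.53 ± 0.074 on the log2 scale under ERKi (adjusted p = 6.4e-06). Its CPM was 43.5, 52.9 and 52.1 in DMSO, 50.8, 52.8 and 52.6 with ABT199, 36.0, 33.5 and 33.2 with ERKi, and 39.7, 35.4 and 40.7 with Comb. The ERKi and Comb libraries overlapped each other and lay below all others. SLC7A6OS on the opposite strand shares 44.4% of the exon bases of SLC7A6 and had 96 to 144 counts per library. Whether the counting used strand is not stated in the sources, so reads from these 2 genes may not be parted and the SLC7A6 values are uncertain.

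SLC7A1 (chr13:29509410-29595688, minus strand), the carrier of arginine and lysine, fell 2.64-fold under ERKi (log2 fold change -1.40 ± 0.047, adjusted p = 1.24e-13). Its CPM was 223, 246 and 239 in DMSO, 239, 246 and 247 with ABT199, 88.6, 89.7 and 89.8 with ERKi, and 137, 134 and 142 with Comb. As for SLC3A2, the Comb libraries lay between ERKi and the other groups without overlap.

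The exchangers of small neutral amino acids moved in opposite directions. SLC1A5 (chr19:46774883-46788594, minus strand), the glutamine exchanger, had a CPM of 315, 269 and 271 in DMSO, 278, 283 and 280 with ABT199, 114, 117 and 119.7 with ERKi, and 123, 126 and 133 with Comb. It fell 2.43-fold under ERKi (log2 fold change -1.28 ± 0.057, adjusted p = 3.56e-12). SLC1A4 (chr2:64988477-65023865, plus strand), which carries alanine, serine and cysteine, had a CPM of 261, 266 and 266 in DMSO, 263, 275 and 258 with ABT199, 329.6, 348 and 328 with ERKi, and 296, 308 and 315 with Comb. Its rise under ERKi was small, 1.27-fold, but all ERKi libraries lay above all others (log2 fold change 0.34 ± 0.042, adjusted p = 1.53e-06). AC008622.2, on the opposite strand, overlaps 23.4% of the exon bases of SLC1A5. No counts are given under that name, so its reads could not be gauged. With the strand setting not stated, the SLC1A5 values are uncertain to that extent.

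Both sodium-coupled carriers of glutamine and alanine fell. SLC38A1 (chr12:46183063-46270017, minus strand) had a CPM of 58.0, 74.6 and 74.6 in DMSO, 71.2, 66.5 and 71.8 with ABT199, 37.4, 39.5 and 36.5 with ERKi, and 11.5, 9.91 and 11.1 with Comb. SLC38A2 (chr12:46358189-46372867, minus strand) had a CPM of 242, 301 and 301 in DMSO, 321, 317 and 331 with ABT199, 196, 191 and 191 with ERKi, and 135, 151 and 149 with Comb. For both genes the Comb libraries were the lowest and did not overlap ERKi. Under ERKi alone the log2 fold change was -0.87 ± 0.083 for SLC38A1 (adjusted p = 6.8e-08) and -0.55 ± 0.069 for SLC38A2 (adjusted p = 2.19e-06).

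SLC6A9 (chr1:43991500-44031467, minus strand), the glycine carrier, was the least abundant of the set. Its CPM was 6.96, 6.50 and 7.21 in DMSO, 5.09, 6.59 and 5.82 with ABT199, 0.711, 0.277 and 0.466 with ERKi, and 0.557, 0.217 and 0.472 with Comb. The last 6 values rest on 15, 6, 10, 11, 4 and 9 counts. The fall under ERKi was 14.1-fold with a wide error (log2 fold change -3.82 ± 0.26, adjusted p = 1.08e-09). The ERKi and Comb libraries overlapped.

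With both drugs together, the same 8 genes were lower and the same 2 higher than in DMSO, where 33.4% of all genes were called lower and 30.4% higher. The ERKi and Comb comparisons share the DMSO libraries. SLC6A9 (log2 fold change -4.02 ± 0.27, adjusted p = 1.61e-09), SLC38A1 (-2.67 ± 0.096, adjusted p = 6.58e-13) and SLC7A5 (-2.34 ± 0.058, adjusted p = 8.8e-15) were the furthest below DMSO. SLC1A5 (-1.17), SLC38A2 (-0.96), SLC7A1 (-0.78), SLC3A2 (-0.51) and SLC7A6 (-0.36) followed, with adjusted p-values of at most 0.000457. SLC7A11 rose by 0.65 ± 0.086 and SLC1A4 by 0.21 ± 0.042 on the log2 scale (adjusted p = 5.51e-06 and 0.000314). The median of the 10 was -0.87, against -0.01 for all genes.

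**Figure D2:**
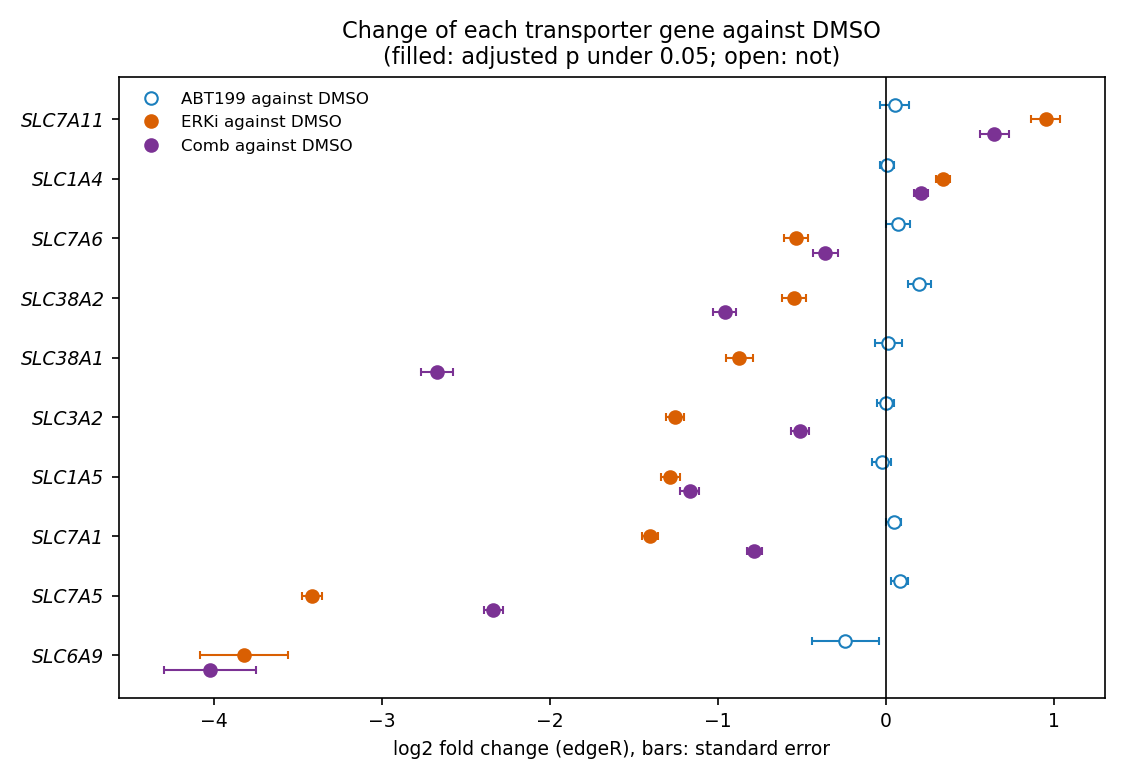
Log2 fold change against DMSO (horizontal axis) of the 10 genes for ABT199, ERKi and Comb; points are edgeR estimates, bars the standard error, and filled points passed an adjusted p of 0.05. All ABT199 points are open and near 0, and SLC38A1 is the member whose Comb point (-2.67) lies farthest below its ERKi point (-0.87).

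Set against venetoclax alone, the combination again lowered 8 of the 10 and raised SLC7A11 and SLC1A4, with 34.2% of all genes called lower and 32.1% higher. SLC7A5 was 5.35-fold lower (log2 fold change -2.42 ± 0.058, adjusted p = 6.27e-15) and SLC38A1 6.44-fold lower (-2.69 ± 0.096, adjusted p = 5.68e-13). SLC38A2, which carries glutamine and alanine, was lower by 2.23-fold (-1.16 ± 0.07, adjusted p = 3.05e-10). SLC7A11 was higher by 0.59 ± 0.087 (adjusted p = 1.33e-05) and SLC1A4 by 0.21 ± 0.042 (adjusted p = 0.000409). The median of the 10 was -0.99, against 0 for all genes.

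With venetoclax alone, 0 of the 10 genes passed edgeR's test against DMSO, where 0.402% of all genes did. DESeq2 and limma-voom also called 0. At an unadjusted p under 0.05 there was 1, SLC38A2, whose 3 ABT199 libraries (317 to 331 CPM) all lay above the DMSO libraries (242 to 301 CPM). Its log2 fold change was 0.20 ± 0.068 (adjusted p = 0.389), and 0.1 without DMSO replicate 1. The 95% intervals of the log2 fold change were narrow for most members, from -0.04 to 0.2 for SLC7A5, from -0.12 to 0.12 for SLC3A2 and from -0.06 to 0.15 for SLC7A1. For SLC6A9 the interval reached from -0.7 to 0.22.

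Venetoclax was also compared in the presence of ERKi. Against ERKi alone, 3 of the 10 were higher in Comb and 4 lower, where 26.5% of all genes were called higher and 24.3% lower, shares not far from those of the members. The genes that rose were SLC7A5 (2.11-fold, log2 fold change 1.08 ± 0.062, adjusted p = 1.38e-09), SLC3A2 (1.68-fold, 0.75 ± 0.055, adjusted p = 2.13e-08) and SLC7A1 (1.54-fold, 0.62 ± 0.047, adjusted p = 2.56e-08), the leucine carrier, its heavy chain and the arginine carrier. All 3 remained below DMSO. SLC38A1 fell 3.48-fold (log2 fold change -1.80 ± 0.099, adjusted p = 9.02e-10) and SLC38A2 1.33-fold (-0.41 ± 0.07, adjusted p = 0.000128), which took these sodium-coupled carriers further from DMSO. SLC7A11 and SLC1A4 fell back towards DMSO, by 0.31 ± 0.083 (adjusted p = 0.00549) and 0.13 ± 0.042 (adjusted p = 0.016) on the log2 scale.

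The other 3 members did not pass the test between Comb and ERKi. SLC7A6 had a log2 fold change of 0.18 (95% interval 0 to 0.35, adjusted p = 0.0638), SLC1A5 of 0.12 (-0.02 to 0.25, adjusted p = 0.103) and SLC6A9 of -0.21 (-1.07 to 0.66, adjusted p = 0.685). Without DMSO replicate 1, which enters only through the shared estimate of spread and the scaling, SLC7A6 and SLC1A5 passed (adjusted p = 0.0079 and 0.00563), making 5 higher. SLC1A4 lost its call without ERKi replicate 2 (adjusted p = 0.0925) and without Comb replicate 1 (0.06).

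Whether venetoclax acted differently with and without ERKi was tested as an interaction, the log2 change of Comb against ERKi minus that of ABT199 against DMSO. It passed for 6 of the 10 genes, 3 in each direction, where 21.3% of all genes were called positive and 18% negative. The interaction was 1.0 ± 0.081 for SLC7A5 (adjusted p = 2.96e-07), 0.75 ± 0.077 for SLC3A2 (adjusted p = 2.46e-06) and 0.57 ± 0.065 for SLC7A1 (adjusted p = 6.37e-06). It was -1.82 ± 0.13 for SLC38A1 (adjusted p = 6.61e-08), -0.61 ± 0.098 for SLC38A2 (adjusted p = 0.000152) and -0.36 ± 0.12 for SLC7A11 (adjusted p = 0.0269). The SLC7A11 call was lost without ABT199 replicate 1 (adjusted p = 0.0729), ABT199 replicate 3 (0.0569), ERKi replicate 1 (0.0531) or Comb replicate 3 (0.0637). The glutamine exchanger SLC1A5 had an interaction of 0.14 with a 95% interval of -0.04 to 0.32 (adjusted p = 0.179).

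**Figure D3:**
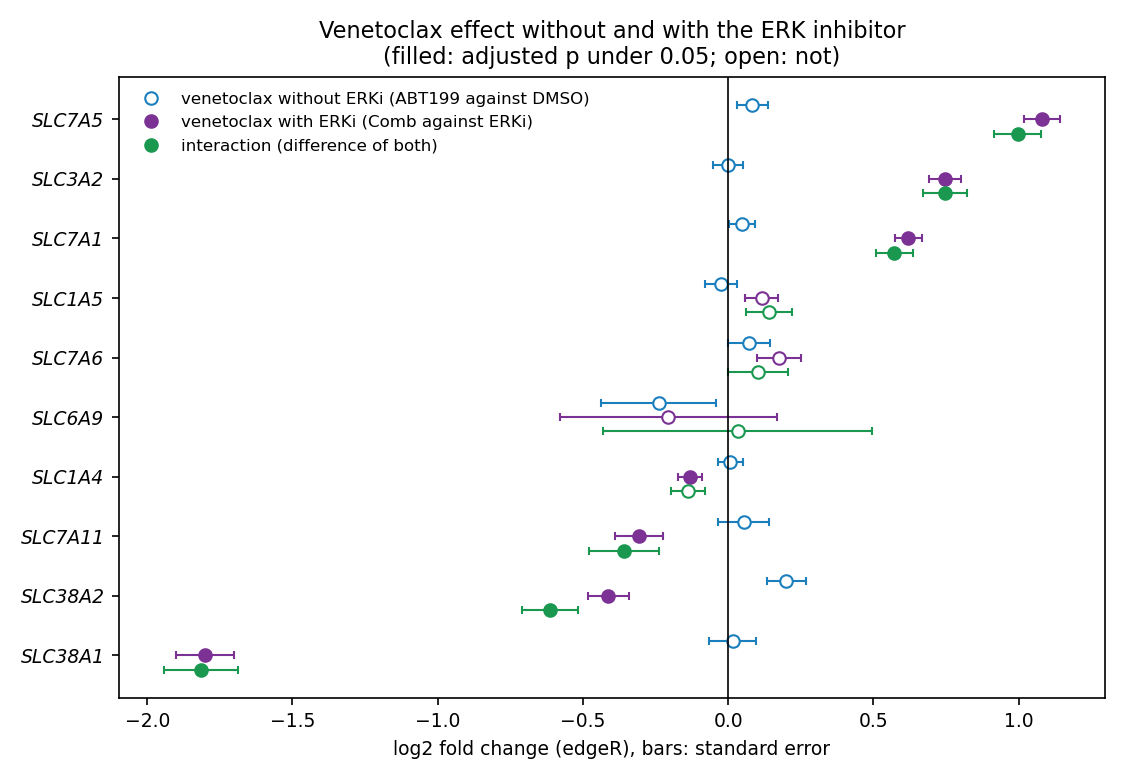
Log2 fold change (horizontal axis) of venetoclax without ERKi, of venetoclax with ERKi, and of their difference, for the 10 genes; points are edgeR estimates, bars the standard error, and filled points passed an adjusted p of 0.05. The effects without ERKi all lie between -0.24 and 0.2, and those with ERKi run from -1.8 for SLC38A1 to 1.08 for SLC7A5.

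Because transporters of this family work in pairs or stand in for each other, 4 ratios of read counts were taken within each library, where scaling between libraries plays no part. The counts are not divided by gene length, so a ratio is compared between groups and not read as a ratio of molecules. The light chain SLC7A5 to the heavy chain SLC3A2 gave 1.65, 1.64 and 1.64 in DMSO, 1.68, 1.84 and 1.72 with ABT199, 0.391, 0.355 and 0.36 with ERKi, and 0.467, 0.45 and 0.477 with Comb. It was 4.47-fold lower with ERKi than in DMSO and 1.26-fold higher with Comb than with ERKi, and in both cases the libraries did not overlap. The other light chain, SLC7A11, moved the opposite way against the same heavy chain. Its ratio to SLC3A2 was 0.0829, 0.124 and 0.12 in DMSO, 0.116, 0.108 and 0.112 with ABT199, 0.514, 0.504 and 0.477 with ERKi, and 0.262, 0.229 and 0.23 with Comb.

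The ratio of SLC1A4 to SLC1A5 was 0.829, 0.987 and 0.981 in DMSO, 0.947, 0.973 and 0.921 with ABT199, 2.88, 2.96 and 2.74 with ERKi, and 2.41, 2.45 and 2.37 with Comb. The ERKi libraries were the highest, 3.08-fold above DMSO. The ratio of SLC38A1 to SLC38A2 was 0.24, 0.248 and 0.248 in DMSO, 0.222, 0.21 and 0.217 with ABT199, 0.191, 0.207 and 0.191 with ERKi, and 0.0858, 0.066 and 0.0744 with Comb. Here the Comb libraries stood apart, 2.62-fold below ERKi. Each of the 4 ratios was compared over 5 pairs of groups by an exact two-sided permutation test, 20 tests in all. In 18 of them the libraries did not overlap and p was 0.1, the smallest that 3 against 3 allow, with an adjusted p of 0.111. The remaining 2, ABT199 against DMSO for SLC7A11 to SLC3A2 and for SLC1A4 to SLC1A5, gave an exact p of 1.

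**Figure D4:**
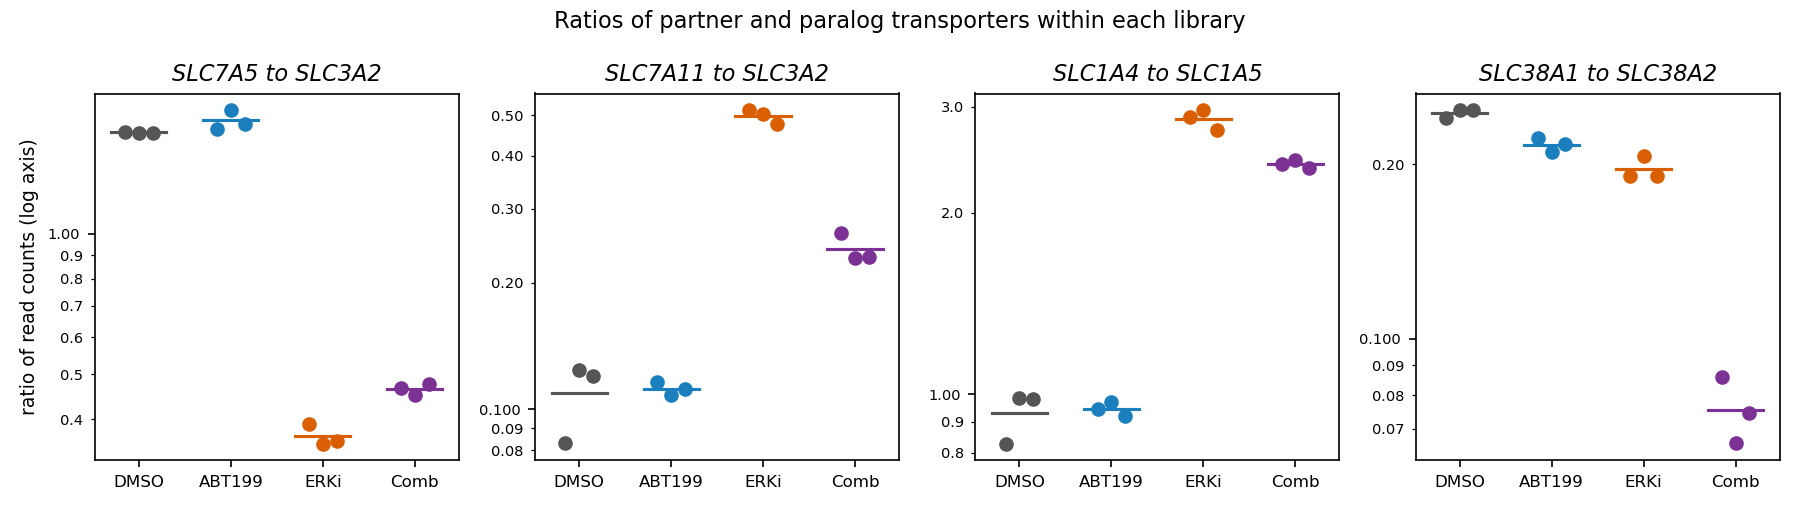
Ratio of read counts (vertical log axis) of 4 pairs of transporter genes in the same library, by group; points are libraries and lines the mean of 3. ERKi lowers SLC7A5 to SLC3A2 from a mean of 1.65 to 0.369 and raises SLC7A11 to SLC3A2 from 0.109 to 0.498, and SLC38A1 to SLC38A2 is lowest in Comb at 0.0754.

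Across the 12 libraries the members fell into patterns that can be described by the Pearson correlation of log2 CPM, without a test, since the libraries share 4 groups. SLC7A5 went with SLC7A1 (r = 0.989) and against SLC7A11 (r = -0.976). SLC38A1 went with SLC38A2 (r = 0.937) but little with SLC3A2 (r = 0.386). Among the 10295 genes whose mean CPM reached 5, those most like SLC7A5 were SKA3 (r = 0.9992), TMEM121B (0.999) and MCM4 (0.9989). Those most like SLC38A2 were CCDC117 (0.9967), TMEM135 (0.9943) and SMARCAD1 (0.9942). SLC7A11 was most like TET2 (0.996), NAV3 (0.9941) and MED13L (0.9937), and SLC1A4 most like RAB3GAP1 (0.9852), ZSCAN9 (0.9849) and S100A6 (0.9847).

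Other carriers of amino acids gave a mixed picture. Of 26 further plasma membrane transporters, 10 were abundant enough to test, and under ERKi 5 of them fell and 3 rose. Their median was -0.34 on the log2 scale. Among all genes tested, 35.2% were called lower and 34.5% higher under ERKi. SLC38A5, a sodium-coupled glutamine carrier, fell by 2.61 ± 0.088 (adjusted p = 1.59e-13), SLC7A2, a second arginine carrier, by 1.77 ± 0.12 (adjusted p = 6.53e-10) and the taurine carrier SLC6A6 by 1.46 ± 0.09 (adjusted p = 2.39e-10) on the log2 scale. The 3 that rose were SLC7A8 (4.48), SLC1A1 (2.56) and SLC1A3 (1.45), named here after their values were seen. SLC7A8, a second light chain for large neutral amino acids, remained scarce, at 2.75, 2.40 and 2.70 CPM with ERKi against 0 to 0.19 in DMSO. In Comb against ERKi, where 26.5% of all genes were called higher and 24.3% lower, 6 of the 10 rose and 2 fell. The 10 had a median of 0.41. Among those that rose were SLC7A2 (1.20 ± 0.12, adjusted p = 5.91e-07) and SLC38A5 (0.83 ± 0.096, adjusted p = 2.87e-06). Of 9 lysosomal amino acid transporters tested, 6 rose and 2 fell under ERKi (median 0.27), among them SLC66A1, which exports cationic amino acids from the lysosome, and SLC38A9, which reports lysosomal arginine to mTORC1 (0.95 and 0.76 on the log2 scale).

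Genes of the ATF4 response were counted against the 35.2% of all genes called lower and 34.5% called higher under ERKi. ATF4 itself had a CPM of 556, 466 and 476 in DMSO, 556, 552 and 549 with ABT199, 291, 288 and 283 with ERKi, and 278, 288 and 285 with Comb. The log2 fold change was -0.80 ± 0.054 for ERKi (adjusted p = 8.35e-10) and -0.82 ± 0.054 for Comb (adjusted p = 1.1e-09) against DMSO. Between Comb and ERKi it was -0.02 ± 0.054 (adjusted p = 0.8). Of 14 tested eIF2alpha kinases and partners of ATF4, 8 fell and 3 rose under ERKi, with TRIB3, a kinase-like target of ATF4, lower by 1.89 on the log2 scale (adjusted p = 4.69e-11). Of 17 other ATF4 target genes, 14 fell and 3 did not pass the test under ERKi, with a median of -1.70. PSAT1 and PHGDH, enzymes of serine synthesis, fell by 3.89 ± 0.056 and 3.85 ± 0.089 on the log2 scale (adjusted p = 1.62e-17 and 3.2e-15). In Comb against ERKi, 8 of the 17 rose, with PHGDH at 1.57 ± 0.093 (adjusted p = 1.88e-09), and 5 fell. Among all genes tested, 26.5% were called higher and 24.3% lower there. ATF4 is mainly controlled by translation of its mRNA, which these data do not measure.

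MYC had a CPM of 335, 297 and 287 in DMSO, 276, 302 and 277 with ABT199, 160, 167 and 158 with ERKi, and 243, 234 and 244 with Comb. It was lowest with ERKi, and the Comb libraries lay between ERKi and DMSO without overlap, as did those of SLC7A5, SLC3A2, SLC7A1 and SLC1A5. For SLC1A5 the change from ERKi to Comb did not pass edgeR's test (log2 fold change 0.12, adjusted p = 0.103). The other lowered members did not share this order. SLC38A1 and SLC38A2 were lowest with Comb, at means of 10.8 and 144.8 CPM against 37.8 and 192.7 with ERKi. For SLC7A6 and SLC6A9 the Comb and ERKi libraries overlapped. Among all genes tested, 26.5% were called higher in Comb than with ERKi. The log2 fold change of MYC was -0.92 ± 0.057 for ERKi against DMSO (adjusted p = 2.45e-10) and 0.57 ± 0.057 for Comb against ERKi (adjusted p = 5.24e-07). Of 11 tested genes of the MYC network, 6 rose and 4 fell under ERKi. The shares of all genes tested were 34.5% higher and 35.2% lower. The part of MYC in the transporter changes was not tested.

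Enzymes and sensors that handle the carried amino acids were counted in the same fits, with some genes on more than 1 list. Among all genes tested, 35.2% were called lower and 34.5% higher under ERKi. Of 13 tested genes of glutamine and glutamate use, 9 fell and 2 rose under ERKi (median -0.39). CTPS1, which uses glutamine to make CTP, fell by 1.68 ± 0.045 (adjusted p = 1.17e-14), and GLUL, which makes glutamine, had a log2 fold change of 0.58 ± 0.048 with ERKi and 0.87 ± 0.049 with Comb against DMSO (adjusted p = 1.21e-08 and 1.3e-10). Of 11 genes of glutathione synthesis and use, for which cystine is a source, 6 fell and 2 rose under ERKi (median -0.13). GSS, which completes glutathione, fell by 1.42 on the log2 scale (adjusted p = 1.42e-11). Of 24 genes by which mTORC1 senses amino acids, 9 rose and 8 fell under ERKi (median 0.11), close to the shares of all genes. MTOR was lower by 0.70 and SESN3, a sestrin, higher by 0.86 (adjusted p = 2.91e-09 and 2.21e-08).

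**Figure D5:**
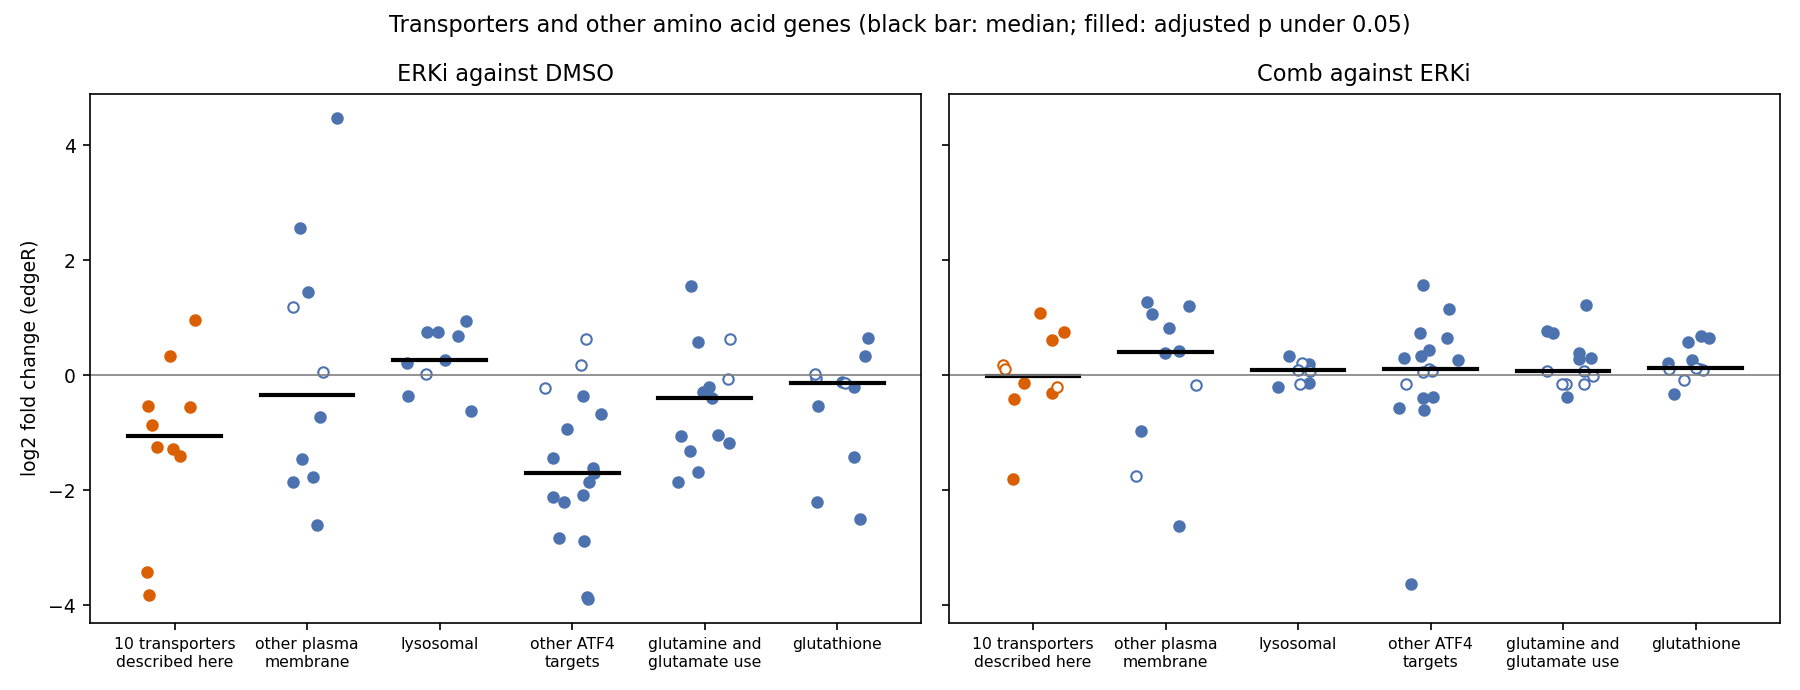
Log2 fold change (vertical axis) of each tested gene in the 10 transporters and in 5 other gene lists (horizontal axis), for ERKi against DMSO and Comb against ERKi; points are genes, filled where the adjusted p was under 0.05, and black bars are list medians. Under ERKi the medians run from -1.70 for the other ATF4 targets to 0.27 for lysosomal transporters, and in Comb against ERKi the 10 transporters spread from -1.8 to 1.08 around a median of -0.01.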

How the data were processed

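Poly(A) RNA was sequenced as paired ends, per the labels' protocols. The deposited table holds raw read counts per gene symbol for 12 libraries. The submitters' processing notes name HISAT2, HTSeq, DESeq2 and hg38. For versions, annotation and strand setting the sources used here say nothing. The tests were run in R 4.3.3 with edgeR 4.0.16: filterByExpr (minimum count 10, minimum total 15), TMM scaling, prior count 0.125, and 1 quasi-likelihood model with a coefficient per group over all 12 libraries (8 residual degrees of freedom, common biological coefficient of variation 0.073). P-values were adjusted by Benjamini-Hochberg over 15173 genes, and genes were called under 0.05. TMM takes most genes as unchanged, whereas 35.2% of those tested were called lower and 34.5% higher under ERKi. A shift shared by most genes would not be seen. Standard errors are |log2 fold change| over the root of F, and 95% intervals use the residual degrees of freedom. Ratios used counts plus 0.5.

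The members and lists were chosen with earlier results of these data known. Named were all members, up to 3 called genes per list and comparison by adjusted p with a mean CPM of at least 5, the 3 genes most like SLC7A5, SLC7A11, SLC38A2 and any member against the majority direction, and ATF4, MYC and DUSP6. Of the genes this rule allows, those outside the results above are not listed. Gene positions came from GENCODE v29 (GRCh38) and promoter windows from RefSeq (GRCh38.p14).

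On simulated counts for ERKi against DMSO (14951 genes), the share of changed genes called was 86.6% at 1.5-fold and 98.5% at both 2-fold and 4-fold. The fit called 29 of 1000 unchanged genes. Changed and unchanged genes were drawn from those with a mean CPM of at least 1, so the shares do not cover scarcer genes. Counts were drawn with the spread fitted for each gene, and an outlying library such as DMSO replicate 1 was not imitated. Alternatives were RLE scaling, DESeq2 1.42.0, limma-voom (limma 3.58.1), leaving each library out, fitting only the libraries compared, a replicate block, a filter of CPM 1 in 3 libraries, and no filter. Figures were drawn with matplotlib 3.10.9.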

Additional observations from a re-analysis of the deposited data

Results flagged for a closer look

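For 6 of the 10 transporter genes, the effect of venetoclax differed between cells with and without ERKi by the test of the interaction itself (edgeR's quasi-likelihood test, adjusted p under 0.05 over all genes). Of all genes tested, 21.3% were called positive and 18% negative. The difference of the log2 effects, with ERKi minus without, was 1.0 for SLC7A5, 0.75 for SLC3A2 and 0.57 for SLC7A1. It was -1.82 for SLC38A1, -0.61 for SLC38A2 and -0.36 for SLC7A11, whose call was lost in 4 of 12 fits that each left out 1 library (adjusted p from 0.0531 to 0.0729). In SLC38A1 the effect was 0.02 without and -1.80 with ERKi, and in SLC7A5 it was 0.08 without and 1.08 with ERKi. SLC38A2 had 0.20 without ERKi, which did not pass the test, and -0.41 with it.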

How the results depend on the processing

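All 570 alternative member log2 fold changes for ERKi against DMSO, Comb against DMSO and Comb against ABT199 kept their direction and call. The 160 alternative values of the within-library ratios stayed within 1 SD. This is no check, since leaving out 1 of 3 libraries or a replicate block cannot move a difference by 1 SD. Dropping the 0.5 added to each count changes little at counts of this size. Of 1129 alternative values of member fold changes in all 6 comparisons, 18 changed sign, all of them values that did not pass the test. For ABT199 against DMSO, SLC3A2 (0 in the fit reported) was 0.01 with RLE scaling, 0.01 with DESeq2 and 0 with limma-voom. Leaving out single libraries gave ranges of -0.04 to 0.06 for SLC3A2, -0.06 to 0.12 for SLC7A11, -0.01 to 0.12 for SLC7A6, -0.02 to 0.03 for SLC1A4, -0.06 to 0.05 for SLC1A5 and -0.1 to 0.07 for SLC38A1 there. For SLC6A9 they were -0.48 to 0.17 in Comb against ERKi and -0.24 to 0.41 in the interaction, where counts per library were 15 or fewer in ERKi and Comb. The members higher in Comb against ERKi numbered 5 with no filter and with only the libraries compared, and 3 to 5 when single libraries were left out; the added genes were SLC7A6 and SLC1A5, and the cause was not tested. SLC1A4 lost its call there with no filter (adjusted p = 0.225), and its interaction passed with the filter of CPM 1 (adjusted p = 0.0432) and without DMSO replicate 1 (0.0494). Over all genes tested, same-numbered replicates did not deviate together (18 pairs, correlations -0.07 to 0.09). Single genes did share a number. SLC43A2 had 110 and 125 counts in replicate 2 of DMSO and ABT199, against 3 to 8 in their other replicates, but in ERKi replicate 3 was highest (184). KRT5 was counted only in replicate 2 of DMSO, ABT199 and ERKi (3, 6 and 7 counts). The source of these reads was not tested. How the replicates were set up is not in the labels, and these values cannot settle it. In the fit with a replicate block, members higher and lower were again 3 and 4 in Comb against ERKi. The scalings tried moved the median of all genes by less than 0.1 on the log2 scale. They all take most genes as unchanged, so this could not reveal a shift shared by most genes. Genes called with venetoclax alone numbered 3 higher and 58 lower. They were 74 and 168 with no filter, 1 and 32 with only the libraries compared, 11 higher with DESeq2, 17 higher without DMSO replicate 1 and 1 higher with the block.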
